A study of Mus musculus with 6 samples.

Results

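The 6 genes Gata3, Ctnna2, Dcx, Nrn1, Emcn and Nrp1 were examined for binding of the homeodomain protein Bapx1 (Nkx3-2) and the HMG-box protein Sox9. They were chosen by name, as neural and vascular genes that the study put forward as targets of both factors in the vertebral column, and they are 6 of the 22367 protein-coding genes of the annotation. The study drew them from groups of genes set by expression. It then searched these groups for peaks of both factors within 200 kb of the start. Gata3, Ctnna2, Nrn1 and Dcx came from the group repressed by Bapx1 and activated by Sox9. Emcn and Nrp1 came from the group repressed by both. The study names all 6 among the genes with sites of both factors. The naming thus used ChIP peaks of the study, and the counts of peaks at these genes are a description. For each gene the region was its body in the mouse genome build mm9 plus 200 kb on either side, which came to 3.85 Mb in all. The question was where each factor had peaks in these regions, and whether Bapx1 sites found in fibroblasts lay where no embryo peak was near.

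The data were chromatin immunoprecipitation followed by sequencing (ChIP-Seq) in 6 libraries, 1 per condition, so no value has a replicate and no test between conditions was possible. The Bapx1_VC library came from vertebral columns of E12.5 CD1 embryos in which endogenous Bapx1 carried an S-peptide tag, and its control was the same S-peptide antibody on wildtype E12.5 CD1 vertebral columns. The Sox9_VC library used a Sox9 antibody on E12.5 CD1 embryos with an IgG control, with vertebral column and limb both named as the tissue of this pair. NIH3T3 is a line of mouse fibroblasts, in which V5-tagged Bapx1 was overexpressed from a plasmid and pulled down with a V5 antibody. Its control was a V5 pulldown from cells given the empty pcDNA6 vector, which another label calls wild type. The titles of all 3 controls call them input while their descriptions name antibody or IgG pulldowns, so what a ratio of ChIP to control is relative to rests on the descriptions. The fibroblasts thus held an introduced factor, and the dissected tissue held all cells of the vertebral column. The identity of the tissue could not be checked against markers in these 6 libraries, which hold no expression values. The study's expression microarrays were not used here.

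The depth was 24853758 tags for embryo Bapx1, 20702403 for wildtype S-peptide, 8901095 for NIH3T3 Bapx1 and 12453788 for the V5 control, each tag being a position and strand counted once. A peak is an interval that the authors called with MACS at p of at most 1e-05, and its score is 10 times −log10 of that p. The lists hold 23207 NIH3T3 Bapx1 peaks, 2815 embryo Bapx1 peaks and 3722 Sox9 peaks. Ratios below compare ChIP with control tags within 250 bp of a summit, each scaled to its library, and the 95% exact binomial (Clopper-Pearson) intervals cover counting error only.

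As background, Bapx1 is needed for the formation of the ventral vertebral column, and Sox9 is the master regulator of cartilage. The study reports Bapx1 as largely a repressor in the vertebral column and primarily an activator in spleen and gut. Mature cartilage is a tissue without blood vessels or nerves. Gata3 is a zinc finger transcription factor with roles in the sympathetic nervous system, inner ear and T cells. Ctnna2 (alpha-N-catenin) links cadherins to actin in neurons, Dcx (doublecortin) stabilises microtubules in migrating neurons, and Nrn1 (neuritin) is a membrane-anchored protein that promotes neurite growth. Emcn (endomucin) is a sialomucin of the endothelial surface, and Nrp1 (neuropilin 1) is a co-receptor for semaphorins in axons and for VEGF in endothelium.

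The DNA under the strongest NIH3T3 peak of each gene is given first, where strongest means the smallest p here and below. The smallest p is not a measure of the strength of binding. At Ctnna2 and Nrp1, for example, another site had a higher ratio of Bapx1 to V5 tags than the site shown. Each sequence is the plus strand of mm9, 50 bases on either side of the summit, and capitals mark the Bapx1 motif, TGAGTG or the same letters with A at the second base (TAAGTG), read on either strand, so that minus-strand matches appear reversed and complemented.
Gata3, chr2:9748604-9748704: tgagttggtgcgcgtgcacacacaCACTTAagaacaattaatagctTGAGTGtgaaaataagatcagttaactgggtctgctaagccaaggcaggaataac
Ctnna2, chr6:76812101-76812201: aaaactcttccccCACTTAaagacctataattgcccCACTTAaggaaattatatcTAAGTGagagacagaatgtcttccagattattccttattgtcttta
Dcx, chrX:140090420-140090520: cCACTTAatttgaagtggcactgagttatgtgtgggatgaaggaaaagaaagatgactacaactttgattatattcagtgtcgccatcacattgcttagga
Nrn1, chr13:36737344-36737444: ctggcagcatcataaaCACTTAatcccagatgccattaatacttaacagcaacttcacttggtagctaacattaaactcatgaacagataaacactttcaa
Emcn, chr3:136859353-136859453: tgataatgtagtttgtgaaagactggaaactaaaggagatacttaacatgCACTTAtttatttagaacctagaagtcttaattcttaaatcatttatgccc
Nrp1, chr8:131104676-131104776: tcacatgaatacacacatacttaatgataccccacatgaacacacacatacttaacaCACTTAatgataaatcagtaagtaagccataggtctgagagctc

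All 6 of these sites held the motif, Ctnna2 with 3 matches and Gata3 with 2. Over the 41 NIH3T3 sites of the 6 genes, 34 (82.9%, interval 67.9% to 92.8%) had the motif within 50 bp of the summit, against 64.4% of all NIH3T3 peaks on the chromosomes. Equally long windows centred 500 bp from the summits held it in 8 of 82 cases (9.76%) at the 6 genes and in 10.7% of cases over all NIH3T3 peaks. The motif was present at 14 of 14 sites of Ctnna2, 4 of 4 of Nrn1, 1 of 1 of Dcx, 6 of 7 of Gata3, 4 of 6 of Emcn and 5 of 9 of Nrp1. The interval treats the 41 sites as independent, though they lie at only 6 genes in 1 library. Of the 34 sites with the motif, 14 belong to Ctnna2 alone. A match of these letters is a description of the sequence.

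In NIH3T3 cells every one of the 6 genes had at least 1 Bapx1 peak in its region, as did 90.8% of all coding genes. Ctnna2, the longest gene, had 14 peaks, Nrp1 had 9, Gata3 had 7, Emcn had 6, Nrn1 had 4 and Dcx had 1. In the embryo 2 of the 6 genes had a Bapx1 peak, Ctnna2 and Nrn1 with 1 each, where 39.5% of all coding genes had one. Thus 4 of the 6, Gata3, Dcx, Emcn and Nrp1, had NIH3T3 peaks and no embryo Bapx1 peak, a state shared by 52.5% of coding genes. Per length, the 6 regions held 10.6 NIH3T3 peaks per Mb against 8.74 over the chromosomes, and 0.519 embryo peaks per Mb against 1.06. The median over the regions of coding genes was 9.68 NIH3T3 peaks per Mb. The embryo density of the 6 genes rests on 2 peaks, too few to tell it from the other densities. Among coding genes with a region within 10% of the length of that of Ctnna2, of which there were 35, the median was 13 NIH3T3 peaks and 1 embryo peak. By the same measure the median number of NIH3T3 peaks was 4 for genes like Gata3 (7) and Nrn1 (4) in length, and 5 for those like Emcn (6), Nrp1 (9) and Dcx (1). The matched sets held 19140 genes for Gata3, 17500 for Nrn1, 4100 for Emcn, 1689 for Nrp1 and 5600 for Dcx. Those for Gata3 and Nrn1 thus cover most coding genes. The median number of embryo peaks was 0 for genes matched to each of these 5.

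**Figure D1:**
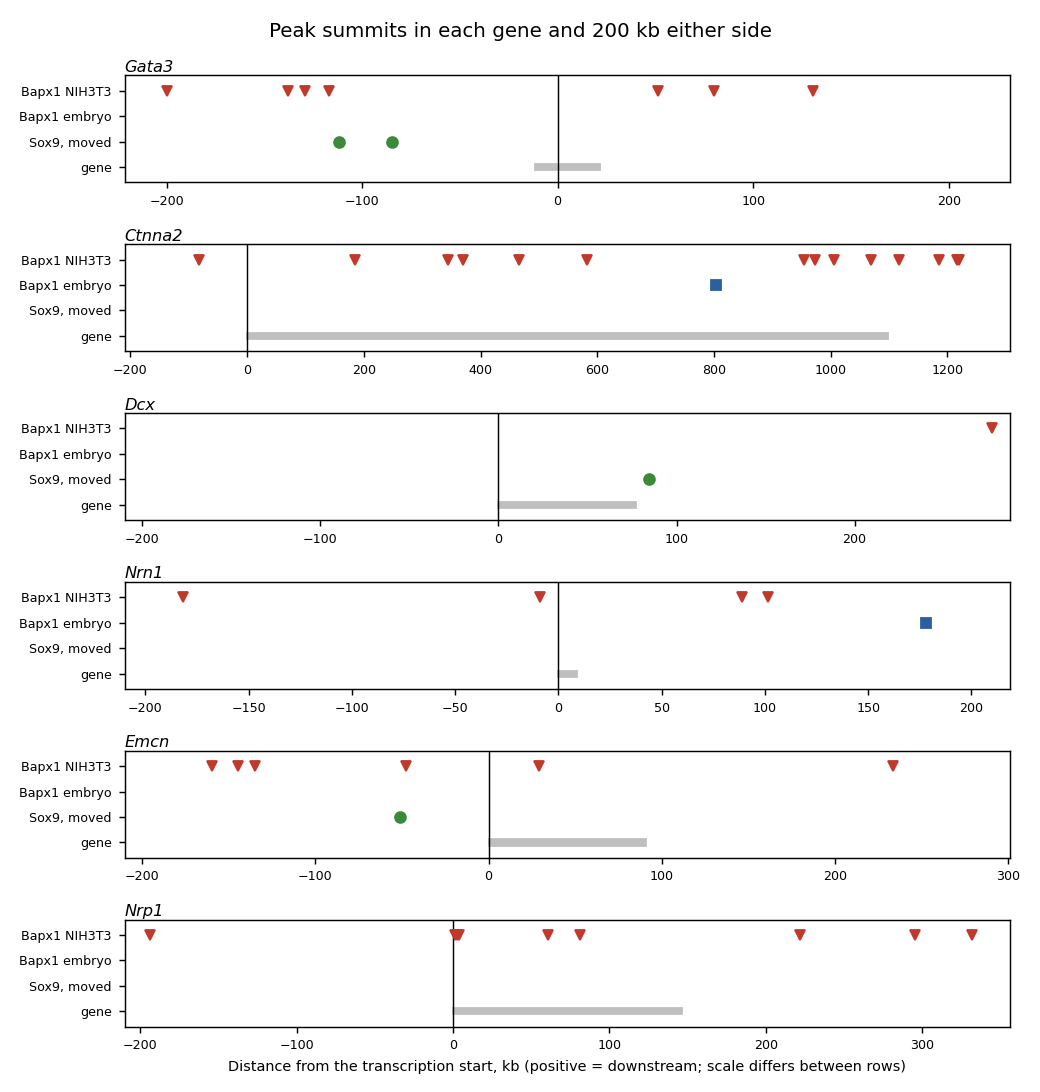
Summits of NIH3T3 Bapx1 peaks (triangles), embryo Bapx1 peaks (squares) and Sox9 peaks moved to mm9 (circles) by distance from the transcription start in kb, 1 row per gene, with the gene body as a grey bar and 200 kb on either side. The 41 NIH3T3 summits are spread over all 6 rows, the 2 embryo Bapx1 summits lie in the rows of Ctnna2 and Nrn1, and the 4 Sox9 summits in those of Gata3, Dcx and Emcn.

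None of the 41 NIH3T3 sites had an embryo Bapx1 summit within 10 kb, and over all NIH3T3 peaks 96.4% had none. The closest embryo summit to any of the 41 was 76.4 kb away, at Nrn1, and the median distance was 530.6 kb, where it was 319 kb over all NIH3T3 peaks. Of the sites 19 were intergenic, 22 lay in introns and 0 in exons, where 49.4%, 46.7% and 3.88% of all NIH3T3 peaks did. More than 25 kb from the nearest coding start lay 33 of 41, or 19 of 27 without Ctnna2, and 62.5% of all NIH3T3 peaks. The gene itself had the nearest coding start at 19 of the 41 sites, and 15 sites lay inside the gene. Both measures differ for a long gene, since 7 of the 9 sites in introns of Ctnna2 had the start of Lrrtm1, a gene within Ctnna2, as the nearest. Only 3 sites lay within 5 kb of the start of the gene itself, and all of them belonged to Nrp1.

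The sites were chosen as peaks on the NIH3T3 tags, so their enrichment there is a description. NIH3T3 Bapx1 gave 9 to 24 tags per site with a median of 14, and the V5 control 0 to 7 with a median of 3. Together these were 569 against 132 tags, a scaled ratio of 6.03 (4.98 to 7.34), and 36 of the 41 sites were called, that is at least 2-fold with an interval above 1, as were 94.4% of all NIH3T3 peaks. At the same 41 sites embryo Bapx1 gave 0 to 16 tags with a median of 7, and wildtype S-peptide 0 to 12 with a median of 6. The sums were 285 and 228 tags, a scaled ratio of 1.04 (0.872 to 1.24). All NIH3T3 peaks gave 1.11 (1.10 to 1.12) in the embryo, a value inside the interval of the 6 genes. All embryo Bapx1 peaks gave 3.53 (3.47 to 3.58), but they were called on these same embryo tags, so their ratio was high by that choice and is no measure of the 41 sites. The embryo ratio was above 1 at 21 of the 41 sites and below 1 at 20, where it was above 1 at 54.9% of all NIH3T3 peaks. In the embryo 0 of the 41 sites were called, against 2.38% of all NIH3T3 peaks. A single site with a median of 7 tags has a wide interval, so a rise at a single site may not be detectable at this depth.

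**Figure D2:**
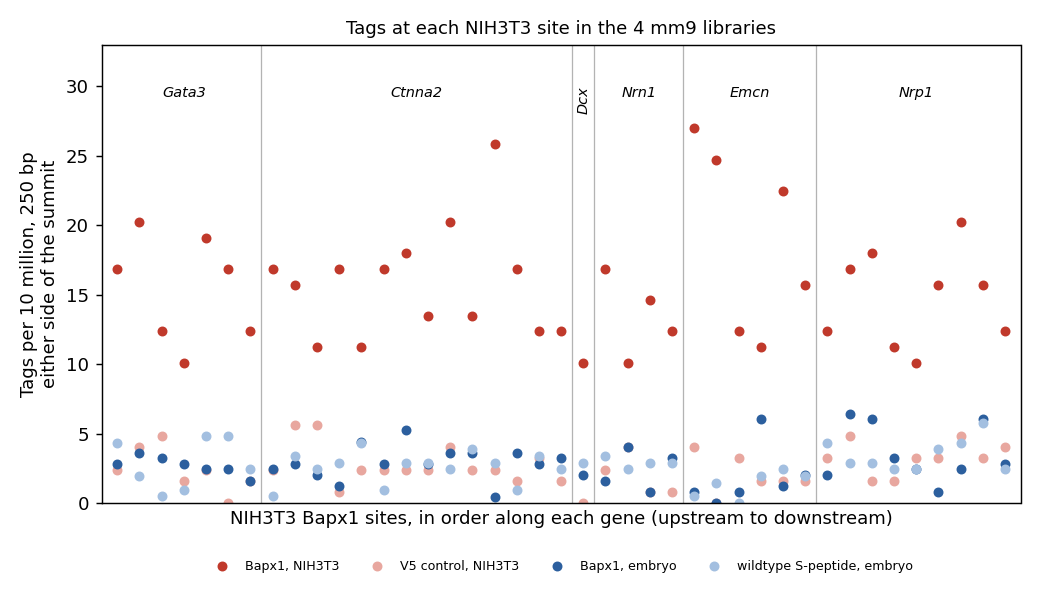
Tags per 10000000 within 250 bp of the summit at each of the 41 NIH3T3 sites (points along the horizontal axis, grouped by gene and ordered from upstream to downstream) in the 4 libraries on mm9. NIH3T3 Bapx1 lies between 10.1 and 27.0, V5 between 0 and 5.62, embryo Bapx1 between 0 and 6.44 and wildtype S-peptide between 0 and 5.80.

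**Figure D3:**
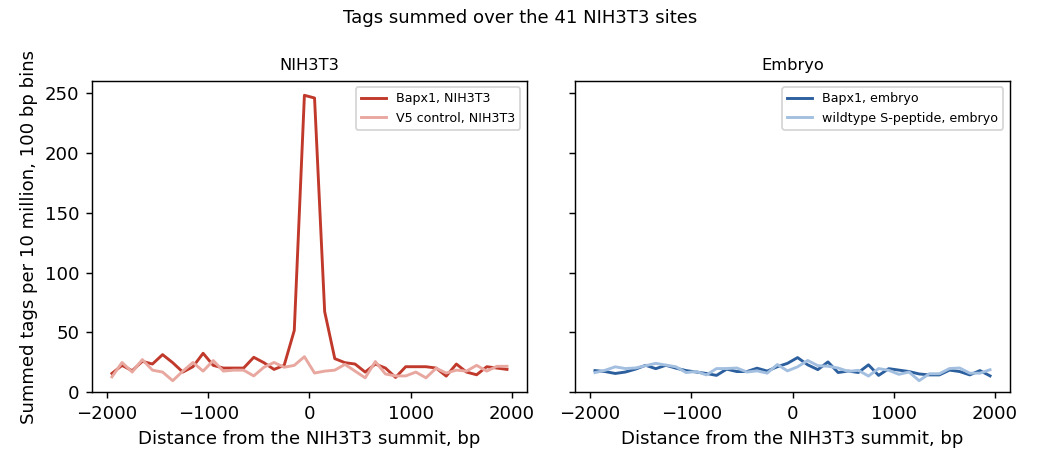
Tags per 10000000 summed over the 41 sites in bins of 100 bp, by distance from the NIH3T3 summit, for Bapx1 and its control in NIH3T3 cells (left) and in the embryo (right). NIH3T3 Bapx1 reaches 248 in the bin before the summit with V5 at 29.7, while embryo Bapx1 reaches 29 in the bin after it with wildtype S-peptide at 21.3. In the bin that starts 100 bp after the summit, wildtype S-peptide reaches 26.6 and embryo Bapx1 is lower, at 22.9.

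Among the neural genes, Gata3 (chr2:9778705-9811661, minus strand) had no NIH3T3 peak inside the gene. Its strongest site, chr2:9748447-9748794, was also the nearest to its start, 51.6 kb downstream in intergenic DNA, with a score of 125. It gave 17 NIH3T3 Bapx1 tags against 3 of V5, a ratio of 7.93 (2.29 to 42.2), and in the embryo 6 Bapx1 tags against 10 of wildtype S-peptide. The peak with the most tags in the authors' list, 18, lay 137.6 kb upstream in an intron of Taf3, which encodes a TFIID subunit. There NIH3T3 gave 18 against 5 tags and the embryo 9 against 4, a ratio of 1.87 (0.523 to 8.33) that cannot be told from 1. Another 2 sites lay in introns of Taf3 and 1 in an intron of Atp5c1, so the upstream sites of Gata3 fell within other genes. At the site 80.2 kb downstream V5 had 0 tags and Bapx1 15, and the interval of the ratio has a lower limit of 5.02 and no upper one. Summed over its 7 sites the embryo ratio of Gata3 was 0.955 (0.615 to 1.49), and the nearest embryo Bapx1 peak was 1801 kb from the gene.

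Ctnna2 (chr6:76831631-77929693, minus strand) spans 1098 kb, and 9 of its 14 NIH3T3 peaks lay inside the gene, in introns. The strongest, chr6:76811962-76812443, lay past the 3′ end of the gene, 1118 kb from the start, with a score of 141 and 23 tags in the authors' list. The tags there were 23 in NIH3T3 Bapx1 and 3 in V5, a ratio of 10.7 (3.24 to 55.8), but 1 in embryo Bapx1 and 6 in wildtype S-peptide. The site nearest to the start lay 82.5 kb upstream and gave 15 against 3 tags in NIH3T3 and 6 against 1 in the embryo, an embryo ratio of 5.0 whose interval (0.606 to 230) spans 1. Summed over the 14 sites, NIH3T3 gave 5.63 (4.10 to 7.86) and the embryo 1.13 (0.833 to 1.55). The other coding genes with starts nearest to these sites were Lrrtm1, a leucine-rich synaptic protein gene that lies within Ctnna2, for 7 of them, and Gm9008 for 4.

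Dcx (chrX:140290385-140367854, minus strand) had a single NIH3T3 site, chrX:140090308-140090590, in an intron of Pak3, a kinase gene. It lay 277 kb downstream of the start and 199.9 kb from the gene, so it fell just inside the region, and the start of Pak3 was 9.82 kb away. NIH3T3 Bapx1 had 9 tags and V5 had 0, a ratio with a lower limit of 2.76 and no upper one, and the embryo had 5 against 6. The score of 57.9 placed it at rank 17402 of the list. The region of Dcx was also thinly covered, with 1855 V5 tags per Mb per 10000000 tags of the library against 3620 to 5007 at the other 5 genes, and 2577 against 3838 to 4703 in wildtype S-peptide. The part of this coverage in the low number of peaks was not tested. The nearest embryo Bapx1 peak was 1175 kb from Dcx.

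Nrn1 (chr13:36817494-36826346, minus strand) is the shortest of the 6 genes at 8.85 kb, with no other coding start in its region. The strongest of its 4 sites, chr13:36737275-36737512, lay 89.0 kb downstream with a score of 93.3, and gave 13 against 1 tags in NIH3T3 and 2 against 6 in the embryo. The site with the most tags, 15 in the authors' list, lay 181.9 kb upstream in an intron of F13a1, the gene of a coagulation factor chain, with 15 against 3 tags in NIH3T3 and 4 against 7 in the embryo. Nearest to the start was a site 8.81 kb upstream with 9 against 5 tags in NIH3T3, a ratio of 2.52 (0.758 to 9.57), and 10 against 5 in the embryo, 1.67 (0.519 to 6.21). For this site neither ratio can be told from 1 in the recounted tags, although it stands in the NIH3T3 list. Over all 4 sites the embryo ratio was 0.833 (0.453 to 1.53).

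The embryo Bapx1 peaks at Ctnna2 and Nrn1 are shown because they are the only ones in the 6 regions, with capitals again for the Bapx1 motif.
Ctnna2 embryo peak, chr6:77125902-77126002: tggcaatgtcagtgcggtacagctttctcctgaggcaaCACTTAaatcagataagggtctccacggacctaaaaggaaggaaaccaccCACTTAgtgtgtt
Nrn1 embryo peak, chr13:36648480-36648580: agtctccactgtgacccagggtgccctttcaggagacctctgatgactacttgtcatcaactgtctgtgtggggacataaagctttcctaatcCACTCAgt

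The Ctnna2 embryo peak (chr6:77125885-77126143) lay in an intron 803.7 kb downstream of the start, with a score of 54.6, a fold enrichment of 5.41 and a false discovery rate of 60.0% in the authors' list. Embryo Bapx1 had 20 tags and wildtype S-peptide 7, a ratio of 2.38 (0.967 to 6.66), and NIH3T3 had 6 against 4. The nearest NIH3T3 summit was 151 kb away. The Nrn1 embryo peak (chr13:36648423-36648666) was intergenic, 177.8 kb downstream, with a score of 57.6 and a false discovery rate of 61.0%. Embryo Bapx1 had 18 tags and wildtype S-peptide 5, a ratio of 3.00 (1.07 to 10.3), and NIH3T3 had 5 against 1. These peaks were chosen on the embryo tags. In NIH3T3, whose tags did not choose them, 0 of the 2 were called, against 12.7% of all embryo peaks, and their summed NIH3T3 ratio was 3.08 (0.986 to 11.3) where all embryo peaks gave 1.63 (1.59 to 1.67). The false discovery rate is the number of peaks of that significance found with ChIP and control exchanged, as a percentage of those called.

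Among the vascular genes, Emcn (chr3:137004031-137095149, plus strand) had the strongest NIH3T3 site of all 41. It lay at chr3:136859185-136859660, 144.6 kb upstream in intergenic DNA, with a score of 152 at rank 1808 of the list. NIH3T3 Bapx1 had 22 tags there and V5 had 0, so the ratio has a lower limit, 7.66, and no upper one, while the embryo had 0 Bapx1 and 3 wildtype S-peptide tags. A peak with more tags, 25 in the authors' list, stood 159.7 kb upstream, with 24 against 5 tags in NIH3T3 and 2 against 1 in the embryo, and its summit had no motif. The site nearest to the start, 29.3 kb downstream, was the only one within the gene, in an intron, and gave 20 against 2 tags, a ratio of 14.0 (3.4 to 123.5), with 3 against 5 in the embryo. The site at 47.6 kb upstream had 10 against 2 tags in NIH3T3 and the most embryo Bapx1 tags of the 6, 15 against 4 of wildtype S-peptide, a ratio of 3.12 (0.995 to 12.9). Summed over the 6 sites the NIH3T3 ratio of Emcn was 9.42 (5.45 to 17.5) and the embryo ratio 1.32 (0.695 to 2.59). The nearest embryo Bapx1 peak was 422 kb from the gene.

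Nrp1 (chr8:130882973-131029362, plus strand) was the only one of the 6 with Bapx1 sites at its start. The summits lay 1.19, 2.26 and 3.71 kb downstream of it, all in an intron, and the first also had the most tags of the gene in the authors' list, 21. Their sequences are given for the 2 that held the motif.
Nrp1 at 1.19 kb, chr8:130884115-130884215: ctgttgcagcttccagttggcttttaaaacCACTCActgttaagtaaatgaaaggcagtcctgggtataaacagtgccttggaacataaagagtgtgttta
Nrp1 at 2.26 kb, chr8:130885182-130885282: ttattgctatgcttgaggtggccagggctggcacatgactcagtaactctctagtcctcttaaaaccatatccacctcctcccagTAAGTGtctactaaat

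At 1.19 kb the tags were 15 in NIH3T3 Bapx1 and 6 in V5, a ratio of 3.50 (1.28 to 11), and 16 in embryo Bapx1 and 6 in wildtype S-peptide, a ratio of 2.22 (0.826 to 6.93). At 2.26 kb they were 16 and 2, a ratio of 11.2 (2.63 to 100.3), and 15 and 6, a ratio of 2.08 (0.764 to 6.55). At 3.71 kb they were 10 and 2 in NIH3T3 and 8 and 5 in the embryo. All 3 had more embryo Bapx1 than control tags after scaling, but each interval includes 1 and the authors' embryo list holds no peak within 528 kb of the gene. The strongest site by p, chr8:131104613-131104914, was intergenic, 222 kb downstream of the start with a score of 124, and gave 18 against 6 tags in NIH3T3 and 6 against 9 in the embryo. Its nearest coding start was that of Itgb1, 104.8 kb away. The start of Itgb1 was also nearest for the sites 295.6 and 331.7 kb downstream, the latter in an intron of Itgb1. For the site 193.9 kb upstream it was the start of Gm17350. Nrp1 also had the lowest NIH3T3 ratio over its sites, 4.46 (3.06 to 6.64), and its embryo ratio over all 9 was 1.03 (0.730 to 1.44).

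Tags within 1 kb of the start were few. In NIH3T3 Bapx1 and V5 they numbered 18 and 15 at Gata3, 3 and 17 at Ctnna2, 8 and 3 at Dcx, 20 and 17 at Nrn1, 7 and 7 at Emcn, and 28 and 21 at Nrp1. The interval of the ratio lay above 1 at Nrp1, 1.87 (1.02 to 3.46), whose first site is just outside this window, and below 1 at Ctnna2, 0.247 (0.0464 to 0.854), as it did above 1 at 20.4% and below 1 at 3.01% of all coding starts. In embryo Bapx1 and wildtype S-peptide they were 26 and 29, 36 and 25, 20 and 16, 29 and 28, 17 and 19, and 50 and 41 in the same order, and all 6 ratios, from 0.745 to 1.2, had intervals that include 1, where 3.64% of coding starts had an interval above 1 and 2.41% below. By the distance of log2 (tags per 10000000 + 1) over the 4 libraries, the coding starts most like each gene were those of Zfp346, Poll and Dpcd for Gata3, Trim67, Gm15409 and Thnsl2 for Ctnna2, and Trim34a, Slc25a14 and Olfr1465 for Dcx. For Nrn1 they were Raph1, Grsf1 and C030046I01Rik, for Emcn Thoc2, BC125332 and Nipal4, and for Nrp1 Mast2, Ascc1 and Mef2a, all at distances of at most 0.293. RefSeq promoters (GRCm38.p6, 250 bases before to 50 after the start) were given for 5 of the genes, and none of these held the Bapx1 motif, which stood in 26.8% of all genes with a promoter. Nrn1 had no entry.

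The Sox9 and IgG tags do not lie on the same positions as the other libraries. By matching their tag pattern to that of the embryo Bapx1 pair in 500 kb around each Sox9 peak, a clear displacement was found for 3475 of the 3722 peaks, and for 95.8% of these it was over 1 kb. When the summits were moved by it, the Sox9 motif (CAA preceded by 2 bases and followed by 1 base of A or T, then G, on either strand within 50 bp) stood at 35.7% (34.1% to 37.3%) of them, where it stood at 15.8% (14.6% to 17%) at the deposited positions and in 13.4% of flanks. The 247 peaks with no clear displacement were left out.

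After the move 3 of the 6 genes had a Sox9 peak in their region, against 42.0% of coding genes: Gata3 with 2, Dcx with 1 and Emcn with 1. At the deposited coordinates the same regions would hold 5, 2 each at Gata3 and Nrn1, 1 at Emcn and 0 at Dcx, so the displacement decides the answer for Dcx and Nrn1. None of the 6 genes had both an embryo Bapx1 and a moved Sox9 peak in its region, where 21.4% of coding genes did. The study's own limit was 200 kb from the start. Within it, 1 gene had an embryo Bapx1 summit (Nrn1) and 3 a moved Sox9 summit (Gata3, Dcx and Emcn). Both were present at 0 of the 6 genes, while at the deposited Sox9 coordinates 1 gene, Nrn1, had both. An NIH3T3 Bapx1 summit lay within this limit at 5 of the 6 genes, all but Dcx. Shares of all coding genes at this limit are not given here, so these counts have no background beside them. The study names all 6 among genes with sites of both factors, so the counts here differ from its naming. Its own list of site distances was not used for this comparison. The counts here rest on moved Sox9 summits, without the peaks of unclear displacement, and on GENCODE starts, where the study annotated peaks with RefSeq genes. The source of the difference was not tested. The displacement was 3.80 kb at Gata3, 1188 kb at Dcx and −274 kb at Emcn. The nearest Sox9 peak was 243 kb from Nrn1, 1108 kb from Nrp1 and 3421 kb from Ctnna2.

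The Dcx site had the smallest p of the 4, with a score of 113. It lay 7.30 kb past the 3′ end of the gene, nearest to the start of Capn6, and gave 21 Sox9 against 6 IgG tags, a ratio of 3.65 (1.42 to 11.1). The Emcn site lay 51.2 kb upstream, with 18 against 3 tags, a ratio of 6.26 (1.83 to 33.2), and it was 3.63 kb from the NIH3T3 Bapx1 site at 47.6 kb upstream, the nearest such pair at the 6 genes. Both Gata3 sites lay in an intron of Taf3, at 84.8 kb upstream with 16 against 2 tags and at 111.6 kb upstream with 18 against 7, the latter 5.43 kb from an NIH3T3 site. The authors' false discovery rates of the 4 were 19.6% to 61.1%, and 2 of the 4, at Emcn and the farther of Gata3, held the Sox9 motif.

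The Sox9 sites were called on the Sox9 and IgG tags, but they were placed on mm9 with the tags of the embryo Bapx1 pair, so the counts of that pair there are not independent of the placing. At the moved sites embryo Bapx1 had 51 tags against 26 of wildtype S-peptide, a ratio of 1.63 (0.9999 to 2.73). All 3475 moved Sox9 peaks gave 1.55 (1.52 to 1.57). The tags were 13 against 3 at Dcx, a ratio of 3.61 (0.992 to 19.7), 15 against 8 at Emcn, 16 against 7 at the farther Gata3 site and 7 against 8 at the nearer. None of the 4 was called, against 14.1% of all Sox9 peaks. In NIH3T3 the same 4 sites gave 9 against 14 tags, a ratio of 0.899 (0.343 to 2.23), where all moved Sox9 peaks gave 1.21 (1.18 to 1.24).

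Further genes of both systems were counted in the same way, in lists drawn up with earlier results of these data known. Of 20 neural genes 18 had an NIH3T3 Bapx1 peak, 8 an embryo Bapx1 peak and 14 a moved Sox9 peak, and 11 had the former without an embryo Bapx1 peak. Sema3a, a repulsive guidance cue, had 14 NIH3T3 peaks and Corin and Ncam1 had 10 each. Those with an embryo peak were Alcam, Ntrk3, Gbx2, Tubb3, Neurog1, Ncam1, Robo1 and Epha4. Of 16 vascular genes 15 had an NIH3T3 peak, 7 an embryo Bapx1 peak and 5 a Sox9 peak, and 8 had NIH3T3 peaks alone among the Bapx1 lists. Tek, the angiopoietin receptor, had 16 NIH3T3 peaks and its ligand Angpt1 and the adhesion molecule Pecam1 had 11 each. Vegfa, Tek, Tie1, Eng, Angpt1, Angpt2 and Plxnd1 had an embryo peak. The shares of all coding genes for the same states were 90.8%, 39.5%, 42.0% and 52.5%. The lists were not matched to all coding genes in the length of the region, which was 877 kb at Sema3a, for example. A longer region can hold more peaks, so the shares are only roughly comparable.

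Of 12 relatives of the 6 genes 11 had an NIH3T3 peak and 6 an embryo peak. Ctnna3, in a region of 1974 kb, had 30 NIH3T3 peaks, Dclk2 had 15 and Ctnna1 had 8, and Gata4, Gata5, Gata6, Ctnna3, Dclk1 and Dclk2 had an embryo peak. Nrp2, the second neuropilin, had 7 NIH3T3 peaks and no embryo peak, like Nrp1. For comparison, 10 of 10 cartilage genes had an NIH3T3 peak and 8 an embryo peak, with Sox5 at 23 and Chad at 7 NIH3T3 peaks and Sox6 at 6. The cartilage genes with an embryo peak were Nkx3-2, Uncx, Chad, Sox5, Sox6, Sox9, Col2a1 and Wwp2. Per Mb the cartilage list held 2.75 embryo peaks, the neural list 1.80, the relatives 1.24, the vascular list 1.15 and the 6 genes 0.519. Tubb3 alone held 7 of the 19 embryo peaks of the neural list, which without it held 1.18 per Mb, less than the relatives. NIH3T3 peaks ranged from 9.38 per Mb in the neural list to 12.5 in the vascular list, with 10.6 at the 6 genes. Several of the cartilage genes were picked from these libraries, so their embryo peaks are not independent of the list.

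**Figure D4:**
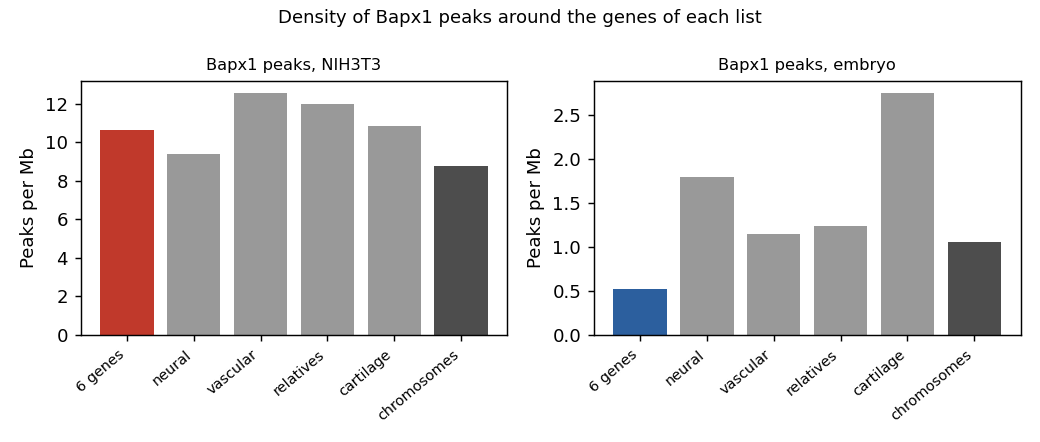
Bapx1 peaks per Mb in NIH3T3 cells (left) and in the embryo (right) around the 6 genes, the 20 neural, 16 vascular, 12 related and 10 cartilage genes, and over the chromosomes. The 6 genes stand at 10.6 NIH3T3 and 0.519 embryo peaks per Mb, the latter the shortest bar and resting on 2 peaks.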

How the data were processed

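The 6 genes and the gene lists were chosen with earlier results of these data known. The authors deposited for each library the positions of uniquely mapped tags with at most 2 mismatches, labelled mm9 throughout although those of Sox9 and IgG are displaced against that build, and for each ChIP library a MACS peak list with the count of tags per peak, the score, the fold enrichment as a ratio and the false discovery rate in percent. No peak was called again. In the NIH3T3 libraries 2.36% (Bapx1) and 6.53% (V5) of the tags repeated a position and strand, and each was counted once. A tag was counted where its middle fell, and each library was scaled by its total over the 21 assembled chromosomes. Genes came from GENCODE vM1 on NCBIM37 (mm9), and the start was that of its first-numbered transcript. Displacement was measured with tags in bins of 50 bp over shifts of up to 4000 kb, and was clear if the best match exceeded the next by 1.5 times. Both window lengths tried, 500 kb and 200 kb, gave the same displacement within 100 bp for 95.8% of 3295 peaks. All 6 genes, every peak in their regions and, in full, the peaks of smallest p, of most tags and nearest to the start were reported. For each list the 3 genes with the most NIH3T3 peaks and those with an embryo peak were named. The rule for called sites, the motif search and the displacement were tested on simulated data. The displacement test moved embryo Bapx1 and wildtype S-peptide tags by a known amount. It did not use a separate library, as the Sox9 and IgG tags are. Python 3.11.15 with numpy 2.4.6, pandas 2.3.3, scipy 1.17.1 and pysam 0.24.0 was used.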

Additional observations from a re-analysis of the deposited data

How the results depend on the processing

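With 1 library per condition no replicate could be left out, and counting intervals do not cover variation between animals or cultures. No paired analysis was possible because no group has replicates. The number of NIH3T3 peaks (41) became 40 at a false discovery rate of at most 5%, 10 at p of at most 1e-10, 25 with 100 kb on either side, 67 with 500 kb, and 24 within 200 kb of the starts. The number of embryo peaks (2) became 0 at a false discovery rate of at most 5%, which no peak of the whole embryo list meets (its smallest is 11.8%), 0 at p of at most 1e-10, which 661 of the list meet, 1 with 100 kb, 4 with 500 kb and 1 within 200 kb of the starts. In an alternative chosen after seeing the data, leaving out Ctnna2, which has the longest region, left 27 NIH3T3 peaks, 1 embryo peak and 27 NIH3T3 sites with no embryo summit within 10 kb. In another such alternative, the neural list without Tubb3 held 1.18 embryo peaks per Mb in place of 1.80. The count of sites with no embryo summit within 10 kb was 41 at 1 kb and 50 kb, 39 at 100 kb, and 10 of the peaks with p of at most 1e-10. Over all NIH3T3 peaks, 1.10% had an embryo summit within 1 kb, 12.6% within 50 kb and 22.2% within 100 kb. The NIH3T3 ratio at the sites (6.03) was 8.45 within the authors' peak limits and stayed within its interval in the other 3 alternatives. The embryo ratio (1.04) ranged from 0.949 to 1.14 over 4 alternatives, and 0 sites were called in the embryo under each of the 3 alternatives of that rule. The motif count (34) was 37 within 100 bp, 38 within the peak limits and 9 of the 10 peaks with p of at most 1e-10. The Sox9 count (4) was 4 with windows of 200 kb, 5 at the deposited coordinates, 3 with 100 kb and 0 at a false discovery rate of at most 5%. Over the whole regions the NIH3T3 ratio (0.959) was 0.925 without the tags under the peaks, and 0.962 with all tags. The embryo ratio (0.994) was 0.993 without them. The changes in counts follow from the narrower or wider selection, except that the deposited Sox9 coordinates move the positions themselves. With few tags per embryo site, depth limits statements on single sites.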

Other observations

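Over the whole regions, peaks included, the ratio of NIH3T3 Bapx1 to V5 tags was 0.870 (0.840 to 0.900) at Ctnna2 and 1.18 (1.08 to 1.29) at Dcx, and from 0.937 to 1.06 at the other 4 genes. Of these 4, Nrp1 also had an interval above 1 (1.01 to 1.12), and the others had intervals that include 1. The embryo ratio of Bapx1 to wildtype S-peptide tags was 0.969 to 1.01 over the 6 regions, and each of its intervals includes 1. Between the controls, V5 in NIH3T3 had 0.720 times (0.670 to 0.773) the scaled tags of wildtype S-peptide over the region of Dcx and 1.14 times (1.11 to 1.17) over that of Ctnna2, with 0.846 to 1.06 at the other 4. The NIH3T3 and embryo controls differ in cells, antibody and construct, which cannot be told apart here.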
